A study of Mus musculus with 8 samples.

Results

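Guanylate-binding proteins are interferon-inducible large GTPases of the dynamin superfamily. The 10 mouse genes described here were chosen by symbol, as Gbp2, Gbp2b, Gbp3, Gbp4, Gbp5, Gbp6, Gbp7, Gbp8, Gbp9 and Gbp10, out of 29079 genes in a table of raw read counts, and all 10 were found in it. The counts come from MC38 cells, a mouse colon adenocarcinoma line. The 4 groups were Piezo2 KO cells given 30 Gy of X-rays at once (IR), non-irradiated Piezo2 KO cells (Non-IR), WT cells given the same dose, and non-irradiated WT cells, with 2 libraries in each. Piezo2 KO means MC38 cells edited with 1 guide RNA against Piezo2, a mechanically gated ion channel, and WT means MC38 cells that carry a CRISPR control, so every group went through CRISPR handling. RNA was taken 60 hours after irradiation. The labels do not say whether the KO line is a clone or a pool, or whether the 2 libraries of a group came from separate cultures, so p-values here measure only how far the libraries spread, and that spread may be technical. By its title the series concerns Piezo2 and radioresistance, and the comparisons below ask how transcripts of the family differed after irradiation, between the lines, and between the lines in their response.

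Guanylate-binding proteins bind and hydrolyse GTP, assemble on the membranes of bacteria and of vacuoles that hold pathogens, and help inflammasomes to sense what is released there. Their genes are classical targets of interferon gamma, through GAS elements, and of type I interferon, through interferon-stimulated response elements (ISRE), with IRF1 as a further activator. In tumour cells they are commonly read as part of an interferon response.

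The genes lie in 2 clusters in the mm10 (GRCm38) build. Gbp5, Gbp7, Gbp3, Gbp2b and Gbp2 follow each other on the plus strand of chromosome 3, between 142493978, the start of Gbp5, and 142638008, the end of Gbp2. Gbp8, Gbp9, Gbp4, Gbp10 and Gbp6 lie on the minus strand of chromosome 5, between 105014150 and 105293698. All 10 are annotated as protein coding. Promoters are shown for the chromosome 3 genes alone because no windows of the chromosome 5 genes were at hand. Genes of both clusters rose after irradiation. RefSeq windows (GRCm38.p6) of 250 bases before to 50 bases after the start were at hand for 5 of the 10 members, all of them on chromosome 3. The stretches below run 5′ to 3′ on the plus strand, and capitals mark matches to the ISRE core, GAAA, any 2 bases and GAAA again, which on the other strand reads TTTC, any 2 bases and TTTC.
Gbp5, chr3:142496739-142496808: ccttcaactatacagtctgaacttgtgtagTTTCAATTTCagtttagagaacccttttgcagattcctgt
Gbp7, chr3:142530253-142530322: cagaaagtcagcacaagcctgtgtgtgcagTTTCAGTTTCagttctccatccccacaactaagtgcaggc
Gbp3, chr3:142559975-142560044: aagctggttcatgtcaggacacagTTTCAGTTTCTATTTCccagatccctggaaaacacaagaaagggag
Gbp2b, chr3:142594680-142594749: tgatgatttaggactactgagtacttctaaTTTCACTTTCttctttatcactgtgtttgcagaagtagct
Gbp2, chr3:142620574-142620643: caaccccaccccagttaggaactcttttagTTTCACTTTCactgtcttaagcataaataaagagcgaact

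The ISRE core was found in 5 of the 5 matched members, against 3.44% of 32851 promoter windows of the same length, searched on both strands. Between the match and the RefSeq start lay 155 bases in Gbp5, 43 in Gbp7, 127 in Gbp2b and 49 in Gbp2. Gbp3 held 2 overlapping matches, with 35 and 29 bases between each and the start, and its other annotated window held none. The GAS letters TTCNNNGAA, which read the same on both strands, were found in the windows of Gbp5 and Gbp7 and in 8.3% of all windows, and no GAS match overlapped an ISRE match. These matches describe letters and are not shown to be sites, and no match in a window says nothing about the factor.

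Library totals ran from 11 to 19.9 M counts. Reads from Piezo2 itself were 7 and 12 in irradiated Piezo2 KO, 0 and 1 in non-irradiated Piezo2 KO, 3 and 9 in irradiated WT, and 0 and 0 in non-irradiated WT, so its mRNA does not check the knockout. The labels call MC38 an epithelial cell line. Of the epithelial markers looked up, Cdh1 (E-cadherin) had 39.1 to 78.4 counts per M (CPM). The keratins Krt18, Krt8 and Krt19 had at most 2, 20 and 28 reads, and Vil1 at most 9. Fibroblast markers were mixed, with 748 to 1408 CPM of the collagen gene Col1a2 but 4.62 to 16.4 CPM of Col1a1. Pdgfrb had 64.2 to 220.2 CPM, Pdgfra 24 to 51.9 CPM and Dcn 1.6 to 61.9 CPM, while Postn had at most 24 reads and Lum at most 1. Interferon gamma mRNA (Ifng) had 1 read in all libraries together. In bulk RNA, more cells that express a gene and more RNA per cell cannot be told apart.

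Irradiation was followed by a large rise of the family in Piezo2 KO cells. Gbp7, which in mice helps to assemble the phagocyte oxidase on vacuoles, had 397 and 370.3 CPM in irradiated Piezo2 KO libraries, against 3.75 and 3.03 CPM in non-irradiated ones. Gbp3 had 323 and 297 CPM in irradiated Piezo2 KO, against 1.92 and 2.16 CPM without irradiation. Gbp2, an isoprenylated member recruited to pathogen vacuoles in mouse cells, had 164 and 174 CPM, against 1.65 and 1.54 CPM. In these 3 genes every irradiated library lay far above every non-irradiated one. The log2 changes were 6.85 ± 0.21 for Gbp7 (adjusted p = 1.01e-06), 7.22 ± 0.26 for Gbp3 (1.76e-06) and 6.73 ± 0.28 for Gbp2 (2.85e-06), each with its standard error (SE) from edgeR's quasi-likelihood test, Benjamini-Hochberg adjusted over 14923 genes. As folds of summed reads these are 116 for Gbp7, 149 for Gbp3 and 107 for Gbp2.

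Gbp5, which in mice promotes assembly of the NLRP3 inflammasome, had 162 and 159 CPM in irradiated Piezo2 KO, against 0.549 and 1.13 CPM in non-irradiated Piezo2 KO. It rose by 7.45 ± 0.30 on the log2 scale (edgeR adjusted p = 2.74e-06), and by 8.16 without the deeper non-irradiated Piezo2 KO library, replicate 2. Gbp9, a member seen at parasite vacuoles in mouse cells, had 76.0 CPM in both irradiated Piezo2 KO libraries, from 1158 and 1333 reads, against 2 and 8 reads in the non-irradiated ones. Gbp9 rose by 7.83 ± 0.32 (edgeR adjusted p = 2.59e-06), and by 8.62 without the same library. Gbp4, reported in mice to restrain IRF7, an inducer of type I interferon, had 311 and 377 reads in irradiated Piezo2 KO, against 0 and 5. It rose by 6.96 ± 0.54 (edgeR adjusted p = 6.63e-05), and by 6.30 without non-irradiated Piezo2 KO replicate 1, the library at 0. All 3 genes had their irradiated libraries above their non-irradiated ones, and the size of their change rests on few reads before irradiation. They passed the count filter through irradiated libraries alone and so had to differ, and their p-values are a description only.

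Gbp6, Gbp8 and Gbp10 had no read in either non-irradiated Piezo2 KO library, so their changes are lower bounds against 3 reads over the group. Gbp6 had 685 and 806 reads in irradiated Piezo2 KO and was at least 461-fold higher. Gbp10, with Gbp6 one of the members tied to resistance of mouse macrophages to intracellular bacteria, had 82 and 84 reads and was at least 51.3-fold higher. Gbp8 had 18 and 48 reads and was at least 20.4-fold higher. Gbp2b, also known as Gbp1, was the exception at the low end, with 3 and 4 reads in irradiated Piezo2 KO, against 1 and 0 reads. Its ratio was 6.49 with an exact 95% interval of 0.834 to 293. That interval includes 1, and Gbp2b fell below the count filter and was not tested.

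**Figure D1:**
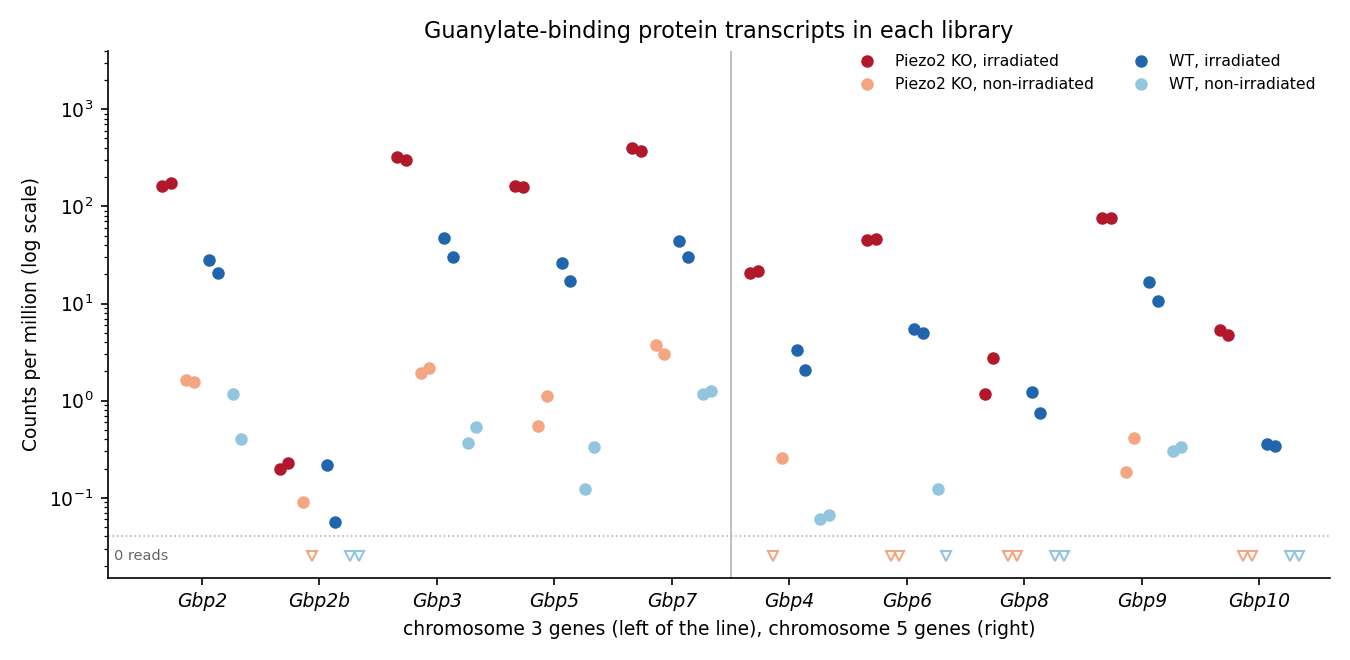
Counts per M (CPM) of the 10 genes in each of the 8 libraries on a log axis, with chromosome 3 genes left of the line and chromosome 5 genes right of it. Filled points are libraries with reads and open triangles are libraries with 0 reads. The irradiated Piezo2 KO libraries are the highest for each gene except Gbp2b and Gbp8, and Gbp7 spans 3.03 to 397 CPM within the Piezo2 KO line.

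WT cells showed the same direction with smaller values. Gbp3 had 47.1 and 29.9 CPM in irradiated WT, against 0.365 and 0.533 CPM in non-irradiated WT. Gbp7 had 43.5 and 30.0 CPM, against 1.16 and 1.27 CPM. Gbp2 had 28.3 and 20.4 CPM in irradiated WT, against 1.16 and 0.4 CPM in non-irradiated WT. The irradiated libraries again lay above the non-irradiated ones without overlap, and WT replicate 1 was above replicate 2 after irradiation in these 3 genes. The log2 changes were 6.40 ± 0.33 for Gbp3 (edgeR adjusted p = 1.85e-05), 4.91 ± 0.24 for Gbp7 (1.6e-05) and 4.92 ± 0.31 for Gbp2 (3.95e-05). Without non-irradiated WT replicate 1, which held 19 of the 25 Gbp2 reads of its group, the change of Gbp2 was 5.88.

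Among the less abundant members in WT, Gbp5 had 25.9 and 17.2 CPM after irradiation, against 0.122 and 0.333 CPM without, and rose by 6.54 ± 0.40 (edgeR adjusted p = 3.5e-05), or by 7.37 without non-irradiated WT replicate 2. Gbp9 had 16.5 and 10.7 CPM in irradiated WT, against 0.304 and 0.333 CPM in non-irradiated WT, and rose by 5.37 ± 0.34 (3.85e-05). Gbp4 had 46 and 36 reads in irradiated WT, against 1 and 1, a ratio of 41 with an exact 95% interval of 11 to 345. These members too had no overlap between the groups. As Gbp5 and Gbp9 passed the count filter through irradiated libraries alone, they had to differ, and their p-values are a description only. Gbp6 had 75 and 87 reads in irradiated WT, against 2 and 0 reads, a ratio of 81.1 (22.1 to 675), and its log2 change of 6.18 became 5.32 without the library at 0, non-irradiated WT replicate 2. Gbp8, with 17 and 13 reads in irradiated WT, and Gbp10, with 5 and 6, had none in non-irradiated WT. They were at least 10-fold and at least 3.67-fold higher. Gbp2b had 3 and 1 reads, against 0 and 0, and was not tested.

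By edgeR's quasi-likelihood test, 9 of the 9 tested members were higher after irradiation in Piezo2 KO, where 21.1% of all tested genes were called higher, and 9 of 9 in WT, where 20.4% were. These counts are a description. Gbp4, Gbp5, Gbp6, Gbp8, Gbp9 and Gbp10 passed the count filter through their irradiated libraries alone and so had to differ, whereas Gbp2, Gbp3 and Gbp7 also pass it in the non-irradiated libraries. The median log2 change was 7.09 in Piezo2 KO over the 6 tested members with reads in each group, and 5.37 in WT over 7 such members, against 0.02 and 0.03 over all tested genes. Both effects kept their calls for the 9 members without any 1 library.

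After irradiation the Piezo2 KO line held more of these transcripts than WT. The values above give 397 and 370.3 CPM of Gbp7 in irradiated Piezo2 KO, against 43.5 and 30.0 CPM in irradiated WT, a difference of 3.39 ± 0.17 on the log2 scale (edgeR adjusted p = 1.72e-05). Gbp3 was higher by 3.01 ± 0.19 (4.83e-05), Gbp5 by 2.91 ± 0.21 (9.27e-05) and Gbp2 by 2.80 ± 0.20 (9.3e-05). On chromosome 5, Gbp6 was higher by 3.13 ± 0.23 (0.000192), Gbp4 by 2.97 ± 0.38 (0.00129), Gbp9 by 2.49 ± 0.20 (0.000145) and Gbp10 by 3.83 ± 0.41 (0.00201). In these 8 genes both irradiated Piezo2 KO libraries exceeded both irradiated WT libraries. As folds of summed reads the difference ran from 5.74 for Gbp9 (exact 95% interval 5.17 to 6.38) to 14.5 for Gbp10 (7.88 to 29.5), and such intervals cover counting error only. For Gbp7 it was 9.14-fold between the libraries numbered 1 and 12.3-fold between those numbered 2.

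Gbp8 did not follow this difference beyond its spread. It had 1.18 and 2.74 CPM in irradiated Piezo2 KO, from 18 and 48 reads, against 1.23 and 0.741 CPM in irradiated WT. The groups overlapped, and the difference was 1.01 ± 0.61 on the log2 scale (edgeR adjusted p = 0.295), or 0.28 without irradiated Piezo2 KO replicate 2. Gbp2b also overlapped, with 3 and 4 reads in irradiated Piezo2 KO, against 3 and 1 in irradiated WT, a ratio of 1.68 with an exact 95% interval of 0.426 to 7.81. In all, 8 of the 9 tested members were higher in irradiated Piezo2 KO than in irradiated WT, where 13.3% of all tested genes were called higher. The median difference over the 9 was 2.97, against -0.01 over all tested genes. Gbp10 passed the filter through irradiated Piezo2 KO alone. It had to differ there, so its p-value and its place among the 8 are a description only. The calls of these 8 members held without any 1 library.

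**Figure D2:**
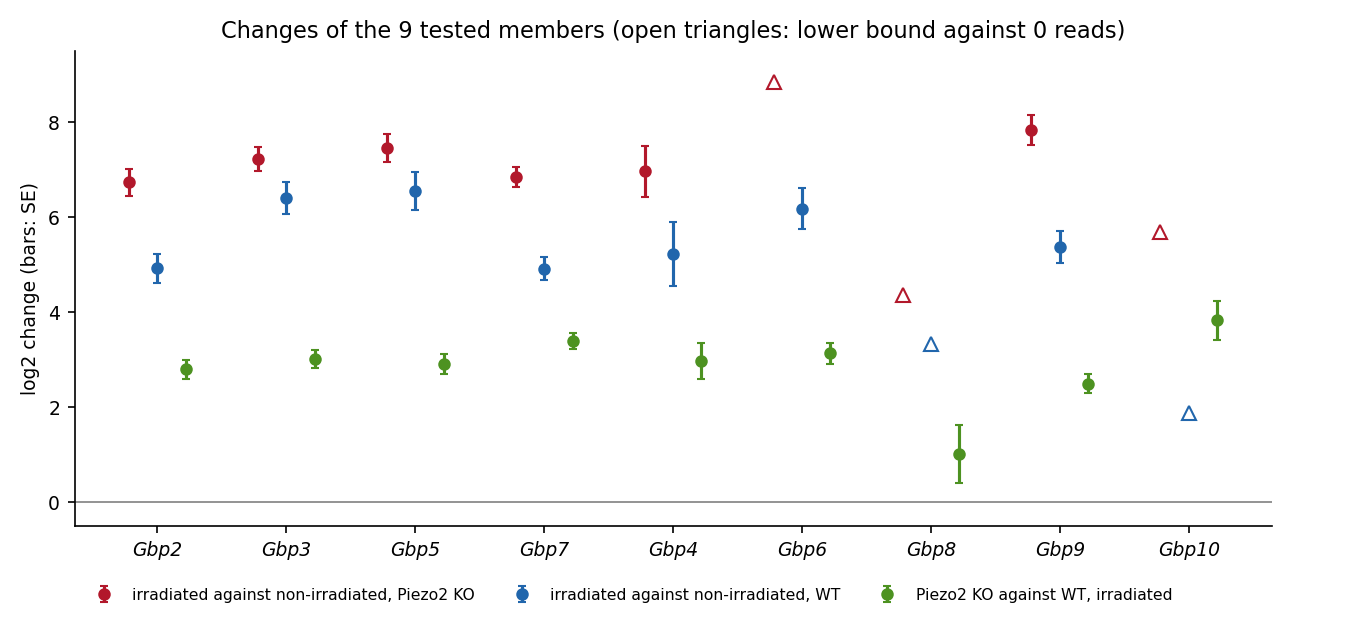
Log2 change of the 9 tested genes for irradiated against non-irradiated Piezo2 KO, irradiated against non-irradiated WT, and irradiated Piezo2 KO against irradiated WT. Points are edgeR estimates with SE bars and open triangles are lower bounds against a group with 0 reads. For Gbp7 the 3 values are 6.85, 4.91 and 3.39, and Gbp8 has the smallest difference between irradiated lines, 1.01.

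Before irradiation the family was low in both lines, with at most 3.75 CPM of any member in a library. Of the 9 tested members, 2 were called higher in non-irradiated Piezo2 KO than in non-irradiated WT, where 10.4% of all tested genes were called higher. Gbp3 had 21 and 42 reads in non-irradiated Piezo2 KO, against 6 and 8 reads in non-irradiated WT, and was higher by 2.19 ± 0.50 (edgeR adjusted p = 0.0207). Gbp7 had 41 and 59 reads, against 19 and 19, and was higher by 1.45 ± 0.32 (0.0187). In CPM neither gene overlapped between the lines. Both calls were lost on leaving out any 1 of the 4 non-irradiated libraries. The edgeR adjusted p of Gbp3 was then 0.121 and 0.0743 without WT replicate 1 and 2, and 0.0627 and 0.116 without Piezo2 KO replicate 1 and 2. That of Gbp7 was 0.1 and 0.0753 without WT replicate 1 and 2, and 0.0798 and 0.0553 without Piezo2 KO replicate 1 and 2.

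The other members did not pass this fit before irradiation. Gbp5 had 6 and 22 reads in non-irradiated Piezo2 KO, against 2 and 5 in non-irradiated WT, a difference of 1.99 ± 0.68 (edgeR adjusted p = 0.0786). Gbp5 passed without irradiated WT replicate 1 (adjusted p = 0.0392) or 2 (0.0385), libraries that lend the fit its spread. It also passed with no count filter (edgeR adjusted p = 0.00228), by DESeq2 (0.0126) and by edgeR with the replicate number, whose meaning the labels do not give, as a block (0.00644). Gbp2 had 18 and 30 reads, against 19 and 6, a difference of 0.99 ± 0.45 (0.169), or 1.97 without non-irradiated WT replicate 1. Gbp2 passed with no count filter (edgeR adjusted p = 0.0359) and with the block (0.0415). Gbp9 had 2 and 8 reads in non-irradiated Piezo2 KO, against 5 and 5, and Gbp4 had 0 and 5, against 1 and 1. For Gbp6, Gbp8, Gbp10 and Gbp2b both lines were at or under 3 reads over the group, so no fold is given. At this depth a difference in these 4 genes before irradiation was not detectable.

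Was the response to irradiation itself different between the lines? The interaction, the log2 irradiation effect in Piezo2 KO minus that in WT, was positive for the 6 tested members with reads in every group. It was 1.94 ± 0.39 for Gbp7 (edgeR adjusted p = 0.0598), 2.45 ± 0.69 for Gbp9 (0.17) and 1.81 ± 0.53 for Gbp2 (0.185). For Gbp4 it was 1.74 ± 1.41 (0.725), for Gbp5 0.91 ± 0.86 (0.78) and for Gbp3 0.82 ± 0.64 (0.706). In this fit edgeR called 0 of 9 members, where 1.37% of all tested genes were called higher. Gbp8 and Gbp10 had no read in either non-irradiated group, so this test could not call them. Gbp6 had none in non-irradiated Piezo2 KO. At an unadjusted p under 0.05 there were 4, namely Gbp7, Gbp9, Gbp2 and Gbp6, beside 1857 of all 14923 tested genes. DESeq2 called 3, Gbp7 (adjusted p = 1.54e-05), Gbp2 (0.00303) and Gbp9 (0.0268), with no adjusted p for 2 members. Its share of calls over all genes is not given here. With no count filter edgeR called 3 as well, Gbp7 (adjusted p = 7.68e-08), Gbp2 (0.000357) and Gbp9 (0.0201). Over all genes 359 were then called higher and 219 lower, against 205 higher in the main fit. With the replicate number as a block edgeR called 4, among them Gbp7 (2.07e-05), Gbp2 (0.00396) and Gbp9 (0.0211). The block gave 1216 higher and 1276 lower calls over all genes. In the fit without a block, Gbp7 passed without irradiated WT replicate 1 (adjusted p = 0.00864) or 2 (0.0376). The value of Gbp2 was 0.84 without non-irradiated WT replicate 1. That of Gbp5 was 0.08 without non-irradiated WT replicate 2 and 1.64 without non-irradiated Piezo2 KO replicate 2, that of Gbp9 was 3.26 without the same Piezo2 KO library, and that of Gbp4 was 1.08 without non-irradiated Piezo2 KO replicate 1.

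Summing the reads of each cluster puts members that lie side by side together, but not reads shared with genes outside the sums. The 5 chromosome 3 genes together had 1047 and 1001 CPM in irradiated Piezo2 KO, against 7.96 and 7.85 CPM in non-irradiated Piezo2 KO. They had 145 and 97.6 CPM in irradiated WT, against 2.8 and 2.53 CPM in non-irradiated WT. The sums are ordered without overlap, with irradiated Piezo2 KO highest and non-irradiated WT lowest. The irradiation effect on this sum was 129-fold in Piezo2 KO and 45.5-fold in WT, and the difference of irradiated Piezo2 KO from irradiated WT was 8.44-fold.

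The 5 chromosome 5 genes together had 148 and 151 CPM in irradiated Piezo2 KO, against 0.183 and 0.667 CPM in non-irradiated Piezo2 KO. They had 26.8 and 18.8 CPM in irradiated WT, against 0.487 and 0.4 CPM in non-irradiated WT. Before irradiation the 2 lines overlapped in this sum, unlike in the chromosome 3 sum. After irradiation Piezo2 KO was 6.56-fold above WT. Gbp6 and Gbp10 are the members for which counting is least certain, since 28.99% and 46.27% of their exon bases overlap an annotated gene on the same strand, Gm43302. Between Gbp10 and Gbp6, 2491 stretches of 75 bases are identical, which is 65.59% of those of Gbp10 and 40.37% of those of Gbp6. Counting all other genes, 77.75% of the stretches of Gbp10 and 67.33% of those of Gbp6 occur elsewhere, most often in Gm43302. Gbp7 overlaps another gene, Gm43802, on the same strand over 11.35% of its exon bases, and Gbp8, Gbp9 and Gbp4 share 60 or 61 exon bases.

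Levels of different genes were compared per length, as reads per kilobase of exon per M counts (RPKM). In irradiated Piezo2 KO, Gbp3 was highest at 94.9 ± 5.73 RPKM (SD, n = 2), then Gbp7 at 68.4 and Gbp2 at 67.2, whose ranges overlapped. Gbp5 followed at 24.2, Gbp9 at 14.7, Gbp6 at 7.63, Gbp4 at 2.8, Gbp10 at 1.31, Gbp8 at 0.569 and Gbp2b at 0.0753 RPKM, with no overlap between neighbours. In irradiated WT, Gbp3 at 11.8 ± 3.71 RPKM (SD, n = 2) and Gbp2 at 9.68 came first and overlapped, and Gbp7 followed at 6.55. Gbp5 at 3.25 and Gbp9 at 2.63 overlapped there, as did Gbp4 at 0.358 and Gbp8 at 0.286, whereas Gbp6 at 0.871, Gbp10 at 0.0907 and Gbp2b at 0.0484 stood apart. The same 3 genes thus led in both irradiated lines.

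Without irradiation the mean level of each gene was below that of the irradiated group of the same line. In non-irradiated Piezo2 KO, Gbp2 at 0.633, Gbp3 at 0.624 and Gbp7 at 0.604 RPKM overlapped, and Gbp5 followed at 0.126 and Gbp9 at 0.0574. In non-irradiated WT, Gbp2 at 0.309 and Gbp7 at 0.216 overlapped. Gbp3 had a lower mean of 0.138, but its range of 0.112 to 0.163 overlapped that of Gbp2, 0.159 to 0.459. Gbp9 at 0.0616 and Gbp5 at 0.0343 lay below these genes. The other 5 members had group means of at most 0.0171 RPKM and rest on at most 5 reads a library, so their order is not resolved.

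**Figure D3:**
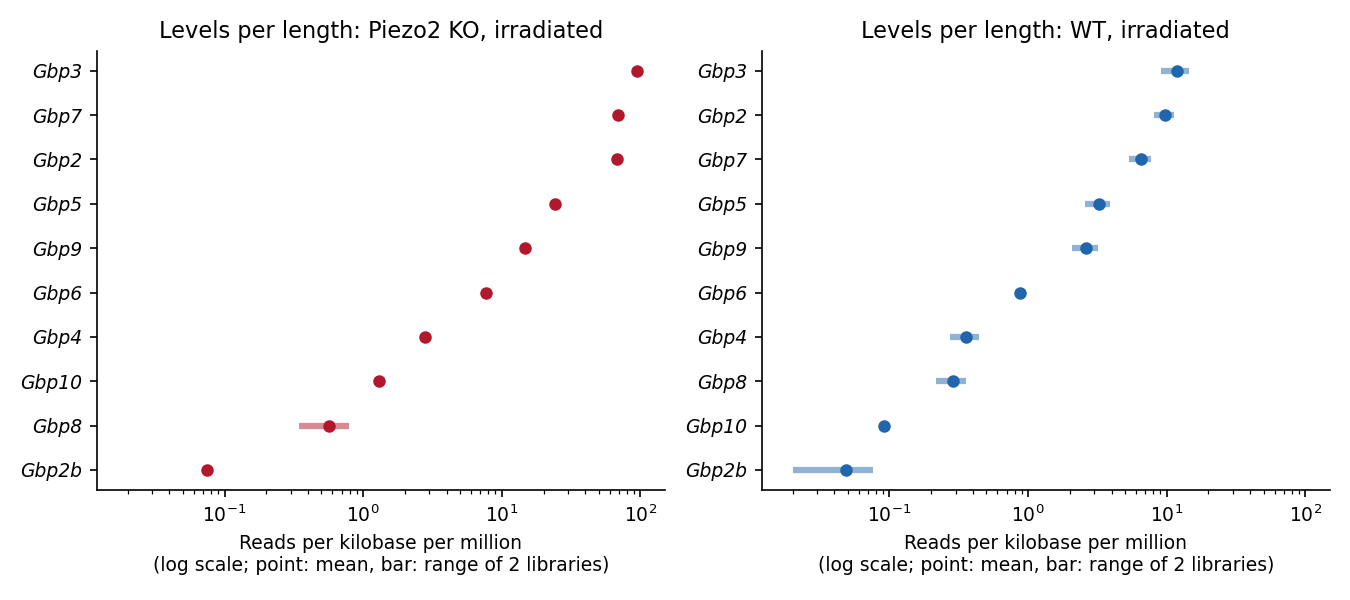
Reads per kilobase of exon per M counts of the 10 genes in irradiated Piezo2 KO (left) and irradiated WT (right), on log axes of the same span. Points are means and bars the range of 2 libraries. Gbp3 leads in both, at 94.9 in irradiated Piezo2 KO and 11.8 in irradiated WT, and Gbp2b is lowest in both.

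The make-up of the family's reads can be given as shares. Of the reads of the 10 genes, Gbp7 took 33.3% and 32.2% in irradiated Piezo2 KO, against 25.3% and 25.8% in irradiated WT. Gbp9 took 6.36% and 6.6% in irradiated Piezo2 KO, against 9.61% and 9.16% in irradiated WT. Gbp3 took 27% and 25.8% in irradiated Piezo2 KO, against 27.4% and 25.7% in irradiated WT, and there the libraries overlapped. Over the 8 libraries the pairwise Pearson correlation of log2 CPM among the 9 tested members was 0.894 to 0.997, with a median of 0.975, as a description of libraries that share groups.

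The genes whose pattern was most like the family mean were chosen by Pearson correlation of log2 CPM over the 8 libraries with the mean of the 9 tested members. They were Ddx58, which encodes the RNA sensor RIG-I (r = 0.9992), Xdh, xanthine dehydrogenase (0.9974), Apol9b, an apolipoprotein L gene (0.9973), Parp9, an antiviral ADP-ribosyltransferase family member (0.9968), and Irgm2, a regulatory immunity-related GTPase (0.9959). The points fall into the 4 groups, 124 genes had r above 0.98, and the values are a description only. Irradiation in Piezo2 KO changed Ddx58 by 3.93, Xdh by 2.65 and Irgm2 by 6.69 on the log2 scale, beside 6.73 to 7.83 for the 6 tested members with reads in each Piezo2 KO group.

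Most tested genes of interferon signalling, which acts on the family's promoters, were also higher in irradiated Piezo2 KO. Of 23 interferon signalling genes, 21 were tested, and in Piezo2 KO 14 rose and 1 fell after irradiation, where 21.1% of all tested genes were called higher and 18.6% lower. In WT 12 rose and 2 fell, where 20.4% of all were called higher and 18.4% lower. Between irradiated lines 13 were higher and 4 lower in Piezo2 KO, where 13.3% and 11.4% of all were, with a median difference of 0.53, against -0.01 over all tested genes. Between non-irradiated lines 4 were higher and 6 lower in Piezo2 KO. Of all tested genes 10.4% were called higher there, and 1416 of 14923 lower.

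Among these genes, some passed the interaction test in the fit in which no member did. They included Stat2, at 1.53 ± 0.11 (edgeR adjusted p = 0.00117), Irf1 at 1.15 ± 0.14 (0.00661), the feedback inhibitor Socs1 at 2.61 ± 0.24 (0.00223) and Batf2, a transcription factor gene, at 4.11 ± 0.58 (0.0137). The difference of Piezo2 KO from WT before irradiation was -0.5 ± 0.1 for Irf1 (edgeR adjusted p = 0.0131) and -1.51 ± 0.17 for Socs1 (0.00121). That difference was 0.67 ± 0.08 for Stat2 (0.0019) and -1.21 ± 0.48 for Batf2 (0.12). Socs1 had 20.5 and 19.4 CPM in irradiated Piezo2 KO and 4.12 and 4.26 CPM in non-irradiated Piezo2 KO, against 10.2 and 8.44 CPM in irradiated WT and 10.6 and 13.3 CPM in non-irradiated WT. Irf9 rose in both lines, by 2.41 ± 0.12 in Piezo2 KO and 1.91 ± 0.12 in WT, and its interaction of 0.50 ± 0.16 did not pass (edgeR adjusted p = 0.246). The transcription factor gene Irf8 had at most 11 reads in a library and was not tested. The type I interferon gene Ifnb1, named after its values were seen, had 129 and 118 reads in irradiated Piezo2 KO, 1 and 0 in non-irradiated Piezo2 KO, 4 and 4 in irradiated WT, and 1 and 0 in non-irradiated WT.

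The regulatory immunity-related GTPases, which steer guanylate-binding proteins to vacuoles in mouse cells, behaved likewise. Irgm2 had 568 and 561 CPM in irradiated Piezo2 KO and 5.58 and 5.34 CPM in non-irradiated Piezo2 KO, against 77.4 and 56.9 CPM in irradiated WT and 2.01 and 3.13 CPM in non-irradiated WT. All 3 listed genes rose in both lines, beside 21.1% of all tested genes called higher in Piezo2 KO and 20.4% in WT. The 3 also passed the interaction, beside 1.37% of all tested genes called higher. Igtp was at 2.52 ± 0.45 (edgeR adjusted p = 0.0371), Irgm2 at 1.98 ± 0.31 (0.022) and Irgm1 at 1.86 ± 0.12 (0.000932). Without any 1 library in turn, when interaction calls over all genes also fell, to 99 to 124 higher, against 205 with all libraries, the value of Igtp was 2.24 to 3.02 and that of Irgm2 1.64 to 2.28. The edgeR adjusted p of Igtp was then above the threshold in 6 of 8 fits (up to 0.208) and that of Irgm2 in 5 (up to 0.138), while Irgm1 kept its call.

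Genes of the inflammasomes, the machinery that guanylate-binding proteins feed, gave a mixed picture. Of 9 listed genes 6 were tested, and 6 rose in Piezo2 KO and 4 in WT after irradiation, beside 21.1% and 20.4% of all tested genes. Casp4, which encodes the lipopolysaccharide-sensing caspase-11 of mice, had 65.2 and 60.1 CPM in irradiated Piezo2 KO and 7.5 and 6.11 CPM in non-irradiated Piezo2 KO, against 33.1 and 32.4 CPM in irradiated WT and 10.5 and 8.27 CPM in non-irradiated WT. Its interaction was 1.42 ± 0.20 (edgeR adjusted p = 0.0142), lost in 6 of 8 fits without 1 library (up to 0.0719). Gsdmd, the pore protein cleaved by that caspase, rose in Piezo2 KO by 0.76 ± 0.07 (0.000184), and its change in WT was 0.01 ± 0.07 (0.917). Its interaction of 0.75 ± 0.10 (0.0125) was lost in 8 of 8 such fits (0.0505 to 0.0642). The DNA sensor Aim2 rose by 1.44 ± 0.32 in Piezo2 KO and 2.04 ± 0.33 in WT, and its interaction was -0.60 ± 0.45 (edgeR adjusted p = 0.695). Aim2 had 8.4 and 8.67 CPM in irradiated Piezo2 KO, against 8.29 and 6.84 CPM in irradiated WT, and that difference of 0.18 ± 0.30 did not pass (edgeR adjusted p = 0.726).

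Enzymes that modify the proteins were not called higher after irradiation. The 6 listed enzymes act in isoprenylation and CaaX processing, the attachment and processing of lipid anchors, which some members such as Gbp2 carry. Of these enzymes 0 rose and 3 fell in Piezo2 KO after irradiation, and 0 and 4 in WT (edgeR, adjusted over all genes). Of all tested genes 18.6% and 18.4% were called lower. The farnesyltransferase subunit genes Fntb and Fnta fell by 0.59 ± 0.09 (adjusted p = 0.00229) and by 0.54 ± 0.14 (0.0187) in Piezo2 KO. Between irradiated lines 2 of the 6 were higher in Piezo2 KO and 0 lower, beside 13.3% of all genes called higher. These were the prenyltransferase subunit gene Pggt1b, by 1.15 ± 0.15 (edgeR adjusted p = 0.00141), and the CaaX protease gene Zmpste24, by 0.48 ± 0.14 (0.0375), both named after their values were seen. Pggt1b was also higher in Piezo2 KO before irradiation, by 0.85 ± 0.15 (0.00722). Of 3 atlastins, the related membrane-fusing GTPases of the endoplasmic reticulum, Atl1 rose by 1.33 ± 0.22 and Atl2 fell by 0.38 in Piezo2 KO. Of 14 genes of ATG8 conjugation and vacuole targeting, 8 rose in each line and 0 fell, beside 21.1% of all tested genes called higher in Piezo2 KO and 20.4% in WT. Trim21 and Rnf213, ubiquitin ligases that act on pathogen surfaces or antibody-coated particles, passed the interaction at 2.36 ± 0.35 (edgeR adjusted p = 0.0162) and 2.25 ± 0.24 (0.00412). The call of Trim21 was lost in 5 of 8 fits without 1 library (up to 0.0874), and that of Batf2 above in 3 of 8 (up to 0.0664). Batf2 also had an interaction of 5.53 without non-irradiated Piezo2 KO replicate 2. Stat2, Irf1, Socs1, Irgm1 and Rnf213 kept their interaction calls in all 8 of these fits.

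**Figure D4:**
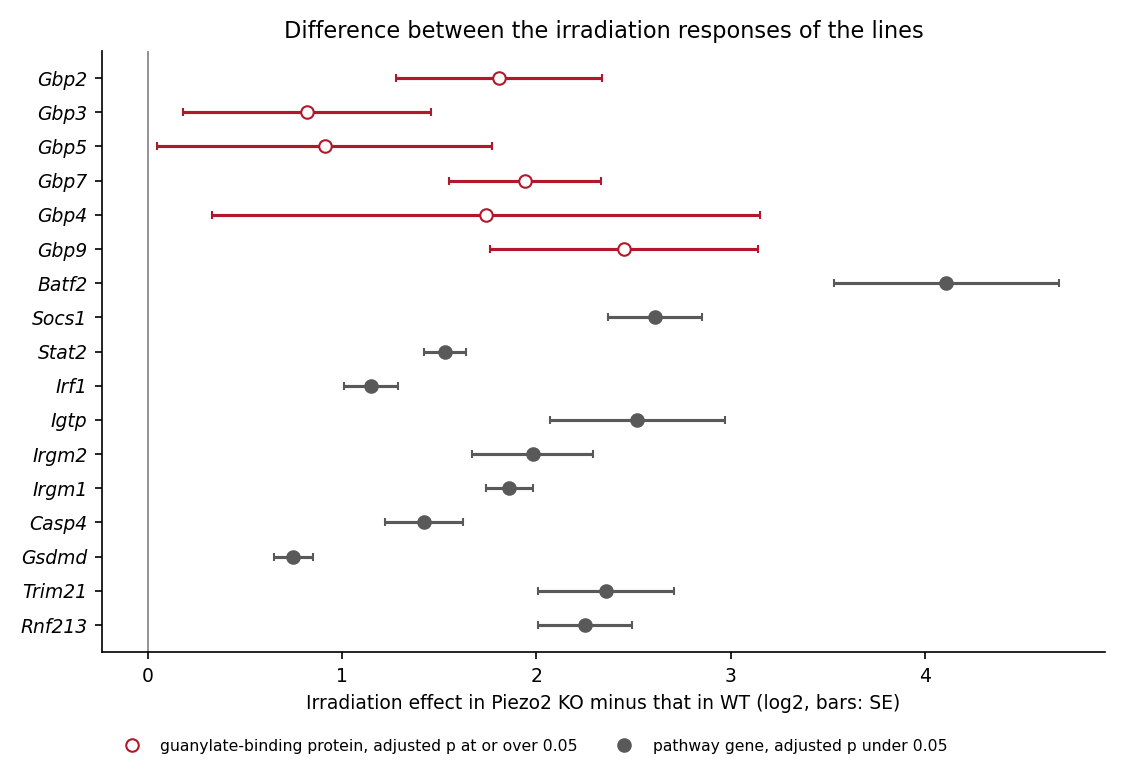
Interaction, the log2 irradiation effect in Piezo2 KO minus that in WT, with SE bars, for the 6 tested guanylate-binding protein genes with reads in every group and 11 pathway genes. Open points have an edgeR adjusted p at or over 0.05 and filled points one under it. Gbp7 at 1.94 ± 0.39 lies close to Irgm2 at 1.98 ± 0.31, of which only Irgm2 passed.

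Markers of immune cells, which express this family strongly, were low but not constant. The 12 macrophage and dendritic cell markers summed to 55.2 to 64.4 CPM in irradiated Piezo2 KO, 7.5 to 8.16 CPM in non-irradiated Piezo2 KO, 38.1 to 39.7 CPM in irradiated WT and 3.95 to 4.13 CPM in non-irradiated WT. Most of this was Cd68, a lysosomal glycoprotein gene, with 62 and 53.1 CPM in irradiated Piezo2 KO and 35 and 37.3 CPM in irradiated WT. Of the 12, 3 were tested and these 3 rose in each line, beside 21.1% of all genes in Piezo2 KO and 20.4% in WT. Lyz2, the lysozyme gene of myeloid cells, had 13 and 13 reads in irradiated Piezo2 KO, 2 and 0 in non-irradiated Piezo2 KO, 4 and 14 in irradiated WT and 1 and 0 in non-irradiated WT. It rose by 3.37 ± 1.14 in Piezo2 KO (edgeR adjusted p = 0.0478) and by 3.83 ± 1.29 in WT (0.0491). Lyz2 passed the count filter through irradiated libraries alone, and Ptprc, another of the 3 tested, through irradiated WT alone. They had to differ there, so these p-values and the count of 3 are a description only. The receptor gene Csf1r, which was not tested, had 6 and 10 reads in irradiated Piezo2 KO, 1 and 2 in non-irradiated Piezo2 KO, 1 and 0 in irradiated WT and 1 and 1 in non-irradiated WT. C1qa had at most 1 read and Adgre1 at most 2 in a library. Ptprc, which encodes the pan-leukocyte antigen CD45, had 6 and 7 reads in irradiated Piezo2 KO, 0 and 0 in non-irradiated Piezo2 KO, 20 and 20 in irradiated WT and 0 and 2 in non-irradiated WT. T and NK cell markers, 8 of 9 of which were in the table, summed to at most 0.798 CPM, and Cd3e had at most 2 reads. The 4 B cell markers summed to 0.855 to 2.03 CPM in irradiated Piezo2 KO and to at most 0.399 CPM in the other groups. The 5 endothelial markers summed to 11 to 13.1 CPM in irradiated Piezo2 KO, 7.75 to 8.88 CPM in non-irradiated Piezo2 KO, 4.97 to 6.79 CPM in irradiated WT and 1.76 to 2 CPM in non-irradiated WT. The 7 fibroblast markers summed to 1576 to 1741 CPM in irradiated Piezo2 KO, 1081 to 1134 in non-irradiated Piezo2 KO, 1061 to 1167 in irradiated WT and 843 to 914 in non-irradiated WT. Most of the fibroblast sums was Col1a2, with 1272 and 1408 CPM in irradiated Piezo2 KO and 748 and 811 CPM in non-irradiated WT. The part of these sums in the results on guanylate-binding proteins was not tested.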

How the data were processed

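The authors deposited 1 table of raw counts, whole numbers of reads for each Ensembl gene in 8 libraries, without scaling. Per the submitters' processing notes the tools were HISAT2, HISAT, HTSeq and DESeq2, with no versions, and the build was mm10. The annotation release, the strand setting and the treatment of reads with several matches were not given in the sources used here. Reads of overlapping or near-identical genes may therefore be misassigned.

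The counts were fitted with edgeR 4.0.16 in R 4.3.3, after filterByExpr with a minimum count of 10 and a minimum total of 15. TMM factors were 0.975 to 1.023. A single fit of 4 group means to all 8 libraries left 4 residual degrees of freedom. The two-sided quasi-likelihood F test was Benjamini-Hochberg adjusted over 14923 genes and called under 0.05. SE were taken from the F statistic. CPM were per M of TMM-scaled totals, and RPKM used the union of GENCODE M21 exons. Library totals of 11 to 19.9 M put 3 counts, the floor for 0 reads, at 0.154 to 0.275 CPM. Exact intervals are Clopper-Pearson at 95%. The fit was tested on simulated data.

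The members and gene lists were chosen with earlier results of these data known. Genes named are the 10 members, the called genes of each list with the largest interaction or irradiation effect (up to 4 a list, with 11 fixed genes), and the 5 genes most correlated with the member mean. DESeq2 1.42.0, other scalings, no filter, a replicate block, fits of 2 groups and leaving out each library were alternatives. Promoter sequences of chromosome 5 members and protein sequences were not analysed here. A few list genes are left unnamed, but the counts and sums of their lists hold them.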

Additional observations from a re-analysis of the deposited data

Results flagged for a closer look

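Genes of the pathway lists whose irradiation effect differed between the lines by the interaction test itself (edgeR, adjusted over all tested genes) are given here as values. The log2 irradiation effect in Piezo2 KO minus that in WT was 4.11 for Batf2, 2.61 for Socs1, 1.53 for Stat2 and 1.15 for Irf1. It was 2.52 for Igtp, 1.98 for Irgm2 and 1.86 for Irgm1. It was 1.42 for Casp4 and 0.75 for Gsdmd, and 2.36 for Trim21 and 2.25 for Rnf213. Socs1 stands out for its change in WT, -0.36 ± 0.16 (edgeR adjusted p = 0.118), beside 2.25 ± 0.17 in Piezo2 KO (6.75e-05). In that fit no guanylate-binding protein gene met this test, whereas 3 did with no count filter and 4 with the replicate number as a block. Interaction calls over all genes also rose, from 205 higher to 359 with no filter and 1216 with the block. With the block the change of Socs1 in WT was -0.37 (adjusted p = 0.0264).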

How the results depend on the processing

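The counts of members called after irradiation, 9 in Piezo2 KO, 9 in WT and 8 between irradiated lines, stayed within 1.5 times under each alternative run. The other 2 counts moved. Members called before irradiation, 2 in the main fit, numbered 4 with no filter, 4 with the replicate block and 0 to 3 without 1 library. Interaction calls, 0 in the main fit, numbered 3 with no filter, 3 by DESeq2, 4 with the replicate block and 0 to 1 without 1 library. Over all genes, the interaction gave 359 higher and 219 lower calls with no filter, 1216 and 1276 with the block, and 99 to 124 and 18 to 31 without 1 library. The block gave 4417 lower calls for irradiation in Piezo2 KO, 4465 lower in WT, 3761 higher and 3755 lower between irradiated lines, and 3197 higher and 3504 lower between non-irradiated lines. A fit of the non-irradiated groups alone gave 831 lower. Without 1 library, irradiation gave 2072 to 3104 higher and 1832 to 2883 lower calls in Piezo2 KO and 1812 to 2754 lower in WT. The lines then differed by 1100 to 1887 higher and 792 to 1592 lower calls after irradiation, and by 788 to 1409 higher and 676 to 1139 lower before it.

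The labels do not say what a replicate number marks. Deviations of same-numbered libraries correlated at 0.56 to 0.61 between groups, a hint from the data and not from the design. The difference of Gbp9 before irradiation, 0.04, turned to -0.02 without non-irradiated WT replicate 1 and to -0.76 without non-irradiated Piezo2 KO replicate 2, in a range of -0.76 to 0.37. The irradiation effect on Gsdmd in WT, 0.01, turned to -0.03 without irradiated WT replicate 2 and to -0.02 without irradiated Piezo2 KO replicate 2, in a range of -0.03 to 0.03. The cause was not tested. In all, 435 of 463 alternative values of member log2 changes kept direction and side of the threshold, and 621 of 660 of those of pathway genes. Where leaving out a library left a group with no reads (Gbp4, Gbp6), no value is given, and a lone library is assumed to vary like the other groups. With the longest transcript as the length, the order of RPKM was the same in the irradiated groups, but 14 of 40 levels moved. In irradiated Piezo2 KO, Gbp5 was then at 42.8 and Gbp4 at 4.62 RPKM, and in non-irradiated Piezo2 KO Gbp3, at 0.76, came before Gbp2, at 0.633. Depth limits the results before irradiation, where 7 of the 10 genes had at most 22 reads in any library.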

Other observations

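Gbp11, a further gene of the chromosome 5 cluster outside the 10 described, had 50 and 52 reads in irradiated Piezo2 KO, against 4 and 4 reads in irradiated WT, and no read in the non-irradiated libraries. It was higher in irradiated Piezo2 KO by 3.57 ± 0.50 on the log2 scale (edgeR adjusted p = 0.00518), and the irradiated libraries of the lines did not overlap. The interferon beta gene Ifnb1 was higher in irradiated Piezo2 KO than in irradiated WT by 4.85 ± 0.57 (0.000856), from 129 and 118 reads against 4 and 4, and its interaction of 4.78 ± 2.04 did not pass (0.397). Gbp11 and Ifnb1 both passed the count filter through irradiated Piezo2 KO alone. They had to differ there, and their p-values are a description only.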
